A study of Mus musculus with 9 samples.

Results

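Macrophages cultured from the bone marrow of mice (BMDM) were compared between cells labelled Irg1 knockout (KO) and cells labelled wild type (WT) after lipopolysaccharide (LPS). The comparison rests on 6 of the 9 libraries of the series, 3 titled WT and 3 titled Irg1 KO, chosen by title alone and described across all genes. All 6 carry the strain label C57BL/6N, came from mice aged between 6 and 16 weeks, and received LPS at 100 ng/mL for 24 h. There was no library without LPS, so every value below describes stimulated cells. The remaining 3 libraries, knockout cells given 1 mM itaconate 4 h into the LPS treatment, were not compared. They entered the model for the gene filter, the scaling and the estimate of spread between replicates. The labels do not state which part of Irg1 was deleted, or whether replicates came from separate animals or cultures. P-values therefore reflect only how far these samples differ among themselves, and that spread may be technical.

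Irg1, now named Acod1, encodes the mitochondrial enzyme that decarboxylates cis-aconitate, an intermediate of the tricarboxylic acid (TCA) cycle, to itaconate. In macrophages its transcript is strongly induced by LPS through NF-kB and interferon signalling. Itaconate inhibits succinate dehydrogenase, and its electrophilic derivatives modify cysteines of KEAP1 and other proteins, through which they act on the antioxidant factor NRF2 and the stress factor ATF3. Cells with and without Irg1 are compared to learn which part of the LPS response depends on itaconate made by the cell itself.

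The targeted gene was examined first, because it checks the labels. Acod1 (ENSMUSG00000022126.6) lies on the plus strand of GRCm38 chromosome 14, from 103046977 to 103056573. It had 94, 117 and 31169 reads in WT replicates 1, 2 and 3, and 154, 170 and 44920 reads in KO replicates 1, 2 and 3, an order kept for all values below. As CPM, read counts scaled for library size and composition, these were 11.3, 9.14 and 4170 for WT and 7.53, 12.9 and 4421 for KO. One library on each side was high and a pair on each side was low, so the libraries labelled WT 1, WT 2 and KO 3 go against their labels. Even the smaller of the 2 high values exceeded the largest of the 4 low values 324-fold. Within a label, WT 3 was 408-fold above the mean of WT 1 and WT 2, and KO 3 was 434-fold above the mean of KO 1 and KO 2.

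As labelled, the KO minus WT log2 difference of Acod1 was 0.08 ± 2.35 (standard error), with a 95% interval from -4.92 to 5.09 and an edgeR adjusted p of 0.999. One library decided it in each direction: the log2 difference was 7.18 without WT 3 and -7.07 without KO 3. These libraries were primed from the poly(A) tail, and reads at the 3′ end of a transcript need not report a deletion further upstream. Counts per gene hold no read positions, so whether the Irg1 locus of any library is intact was not tested. KO 1 and KO 2, of the same label and protocol, had 154 and 170 reads where KO 3 had 44920. Why KO 3 differed from them, and why WT 1 and WT 2 had few reads, was not tested. In the following, WT and KO always mean the library's label. For some genes and lists, results are also given without the 4 libraries whose Acod1 reads oppose their labels, which are WT 1, WT 2, KO 3 and itaconate replicate 3. That leaves WT 3 against KO 1 and KO 2, with the lone WT library assumed to vary like the other groups.

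The bases just before Acod1 are shown because the gene's level split the libraries in a way the labels did not. They are the 215 bases of the RefSeq promoter window (GRCm38.p6) upstream of the annotated start, at chr14:103046762-103046976 on the plus strand, with matches to letters bound by NF-kB and by interferon regulatory factors in capitals.
Acod1: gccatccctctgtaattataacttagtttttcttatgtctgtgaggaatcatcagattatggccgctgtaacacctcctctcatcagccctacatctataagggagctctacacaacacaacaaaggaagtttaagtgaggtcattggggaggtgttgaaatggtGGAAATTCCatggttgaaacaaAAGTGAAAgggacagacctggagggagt
Both strands were searched. The NF-kB-type palindrome GGAANTTCC began 50 bases before the gene start and is present in 0.648% of 32851 RefSeq promoter windows taken over the same length. The interferon regulatory factor core AANNGAAA began 28 bases before the start and is present in 18.9% of windows. The matches do not overlap. TATAAA, in 9.75% of windows, was not among the letters shown. A match describes letters and was not tested as a binding site.

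**Figure D1:**
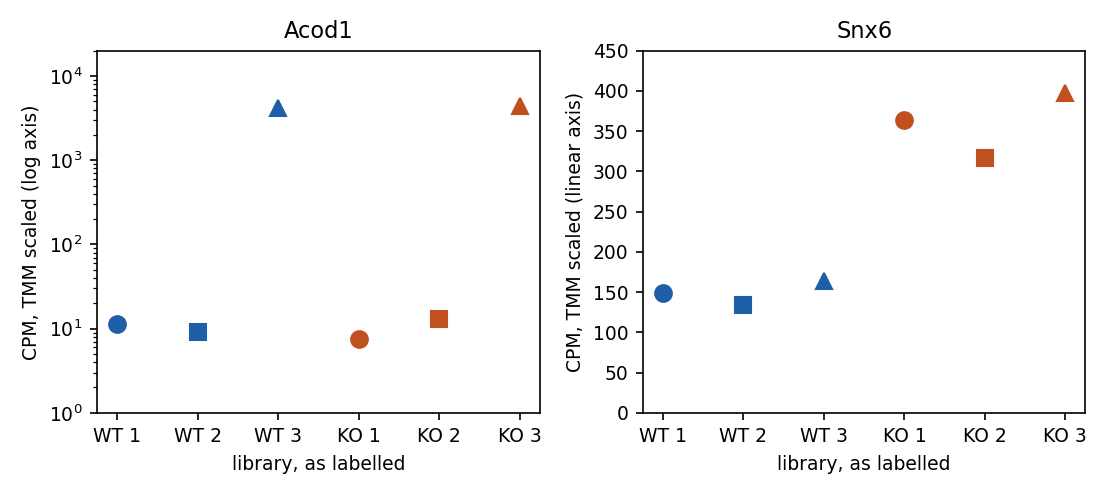
CPM of Acod1 (left, log axis) and Snx6 (right, linear axis from 0) in each of the 6 libraries as labelled, with circles, squares and triangles for replicates 1, 2 and 3, WT in blue and KO in orange. Acod1 was at 4170 and 4421 CPM in WT 3 and KO 3 and at 7.53 to 12.9 CPM in the other 4, whereas the Snx6 values of the 3 KO libraries, 317 to 397, all lay above those of WT.

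Gene reads ranged from 7361671 (WT 3) to 20430359 (KO 1), at which 3 reads correspond to 0.147 to 0.408 CPM (counting error only). Across genes, log2 CPM correlated between libraries of different labels as closely as within a label, with mean r of 0.964 between labels, 0.968 within WT and 0.961 within KO. Genes are not independent replicates, and no 2 libraries agreed within sampling noise. The first principal component, 37.5% of the variance, placed KO 1 at one end (43.9) and WT 3 (-33.3) and KO 3 (-20.2) at the other. KO 1 was also the deepest library and had the largest share of reads that matched no counted feature, 28.4% against 23.5% to 26.9%. The number before the barcode in the descriptions, whose meaning the labels leave unstated and which is taken here as a pool, was 1 for 5 libraries and 2 for KO 3. Macrophage markers summed to between 21700 and 23500 CPM in WT and between 19200 and 21300 in KO, without overlap. T and NK cell markers summed to 1.15 to 1.49 CPM in WT and 1.57 to 1.89 in KO, with 9 of 14, Cd3e and Cd8a among them, at 0 reads in all 6. Mast cell markers summed to at most 0.815 CPM with 6 of 8, among them Fcer1a and Cpa3, at 0. B cell markers summed to 234 to 242 CPM in WT and 143 to 261 in KO, nearly all from Blnk and Sdc1, with Cd79a and Pax5 at 0. Erythroid and megakaryocyte markers summed to 410 to 717 CPM in WT and 215 to 328 in KO, without overlap and nearly all from Pf4, with 3 of 10, Alas2 among them, at 0. Neutrophil (375 to 456 against 360 to 441) and fibroblast (388 to 455 against 380 to 422) marker sums overlapped between labels. Reads of the Y-linked Ddx3y, Eif2s3y, Kdm5d and Uty were present in every library.

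No gene passed the threshold between the libraries as labelled. Of 10781 genes tested with the quasi-likelihood test of edgeR, 0 were called at an adjusted p under 0.05 (0% of those tested), and the smallest adjusted p was 0.995. limma-voom called 0 and DESeq2 called 1, Snx6. An unadjusted p under 0.05 was reached by 337 genes (3.13%), 264 higher in KO (2.45%) and 73 lower (0.677%), fewer than the 5% that this threshold passes when nothing differs. With upper-quartile scaling, which moved the median of all genes from -0.01 to -0.08, that split was 195 higher and 107 lower. KO 1 was the highest of the 6 libraries in 172 of the 264 genes (65.2%), against 22.7% of all genes tested, and WT 3 was the lowest in 128 (48.5%). Without KO 1 the count was 166, without WT 3 it was 168, and without KO 3 it was 550. It was also larger with the 6 libraries alone, and 998 within pool 1. The share of 3.13% therefore belongs to the fit of all 9 libraries.

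The data bound differences only loosely. The median standard error of a gene's log2 difference was 0.35, and the 95% interval lay within 1 log2 unit of 0 for 4774 genes (44.3%). Among the 7313 genes with a mean of at least 10 CPM, the interval lay within that bound for 4432 (60.6%). For those genes a difference above 2-fold lies outside the interval, and for the rest it does not. The interval excluded 0 for the 337 genes with an unadjusted p under 0.05. The 3 KO libraries lay wholly above the 3 WT libraries for 523 genes (4.85%) and wholly below them for 621 (5.76%), together 10.6% of genes tested. With upper-quartile scaling the split was 385 above and 818 below.

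**Figure D2:**
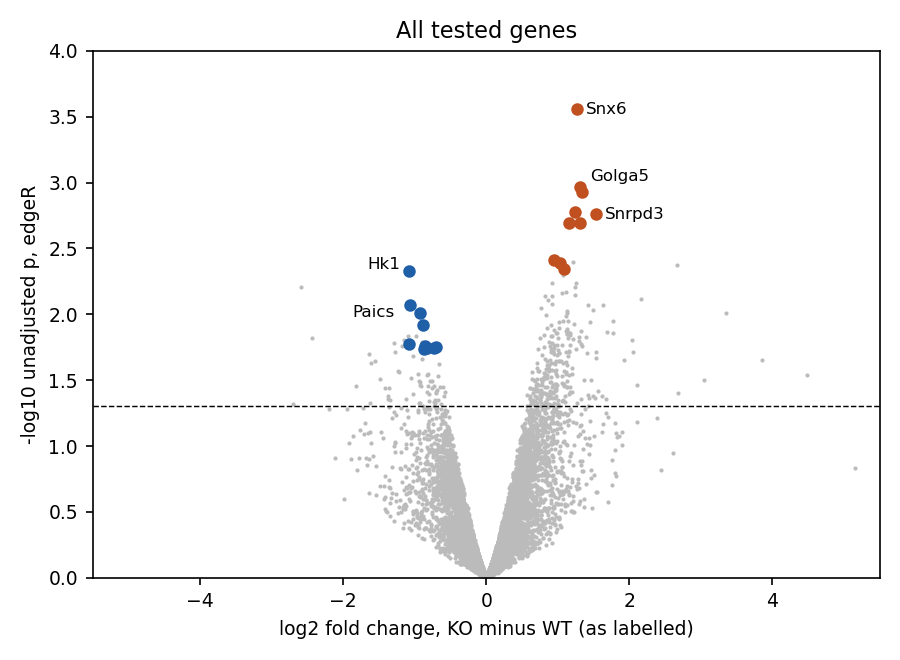
Log2 difference KO minus WT (horizontal) against the negative log10 of the unadjusted edgeR p (vertical) for the 10781 genes tested, with a dashed line at the unadjusted threshold. Orange and blue points are the 10 genes per direction with the smallest p among genes of at least 10 CPM whose labelled groups did not overlap, led by Snx6 and Hk1, and none passed the adjusted threshold.

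Snx6, a sorting nexin of the retromer complex that returns cargo from endosomes to the Golgi, had the smallest p of the genes tested, although not the largest log2 difference. It measured 148, 134 and 164 CPM in WT and 364, 317 and 397 CPM in KO. The labelled groups did not overlap, and within each label the libraries lay close together whether Acod1 was high or low. The log2 difference was 1.27 ± 0.27 (95% interval 0.70 to 1.85), with an unadjusted p of 0.000278 and an edgeR adjusted p of 0.995. DESeq2 gave 1.28 ± 0.26 with an adjusted p of 0.0143. Leaving out any 1 WT or KO library gave 1.20 to 1.35, and leaving out the 4 libraries against their labels gave 1.07. Snx6 lies on the minus strand of chromosome 12, from 54746349 to 54795703. Of 23 retromer and sorting nexin genes tested, 10 were higher and 13 lower, with a median log2 difference of -0.08. Snx3, which recruits retromer to endosomes, measured 144, 131 and 160 CPM in WT and 91.7, 126 and 100 in KO. Vps29, a retromer subunit, measured 82.9, 77.8 and 80.0 against 53.0, 76.9 and 61.2. Both lay lower in KO without overlap and neither passed the test, nor did Snx30, so that 1 member was wholly above and 3 wholly below (17.4%, beside 10.6% of all genes).

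The other genes chosen by p with KO wholly above WT are given by their roles. Snrpd3, a core Sm protein of spliceosomal particles, measured 38.6, 36.1 and 33.8 CPM in WT and 119, 155 and 40.1 in KO, a log2 difference of 1.53 ± 0.40. KO 1 and KO 2 carried that difference and KO 3 sat just above WT. Crnkl1, a splicing factor, measured 46.2, 44.0 and 29.4 against 99.0, 141 and 56.9 CPM (1.31 ± 0.35). Cstf3, a subunit of the factor that cleaves transcripts for polyadenylation, measured 26.8, 21.6 and 19.8 against 33.0, 54.3 and 43.7 CPM (0.94 ± 0.28). Noc3l, a ribosome biogenesis factor, measured 12.7, 16.1 and 8.83 against 43.4, 25.7 and 24.3 CPM (1.31 ± 0.32). KO 3, the library of the other pool and of high Acod1, was the lowest KO library for Snrpd3, Crnkl1 and Noc3l but not for Cstf3.

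Golga5, a Golgi tethering protein, measured 46.3, 23 and 28.1 CPM in WT and 91.5, 99.3 and 54.5 in KO (1.34 ± 0.33). Phf2, a histone demethylase, measured 21.1, 13.2 and 19.9 against 45.6, 48.6 and 26.3 (1.16 ± 0.31). For both the gap was again narrowest at KO 3. Sord, the sorbitol dehydrogenase of the polyol pathway, measured 28.7, 31.7 and 27.7 against 46.4, 62.9 and 78.9 (1.09 ± 0.33), and 4933427D14Rik measured 13.1, 8.04 and 16.3 against 32.9, 27.9 and 27.5 (1.24 ± 0.33). The choice of the 10 genes with KO above WT fixed their direction. Their log2 differences were 0.91 to 1.94 within pool 1, which leaves out KO 3, and 0.92 to 2.05 without the 4 libraries against their labels.

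The 10 genes chosen by p with KO wholly below WT began with Hk1. Hk1, a hexokinase that starts glycolysis, measured 142, 83.2 and 75.7 CPM in WT and 37.4, 50.7 and 54.5 in KO. WT 1 was far above the other 5 libraries, and the closest libraries of the 2 labels were WT 3 and KO 3. The log2 difference was -1.08 ± 0.32 (interval -1.77 to -0.39), -0.74 without WT 1 and -0.76 without the 4 libraries against their labels. Idh3g, a subunit of the isocitrate dehydrogenase of the TCA cycle, measured 21.6, 24.1 and 21.1 CPM against 11.7, 12.9 and 12.0. Its libraries formed 2 tight sets by label, with a log2 difference of -0.87 ± 0.33 that stayed between -0.91 and -0.81 when any 1 WT or KO library was left out. Paics, an enzyme of purine synthesis, measured 77.9, 54.2 and 48.3 against 29.5, 34.9 and 30.8 CPM (-0.92 ± 0.31).

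Itgb1, the integrin beta-1 chain, measured 275, 337 and 211 CPM in WT and 176, 172 and 159 in KO, a log2 difference of -0.70 ± 0.26 that was -0.26 without the 4 libraries against their labels. Lamtor4, a subunit of the Ragulator complex that anchors mTORC1 to lysosomes, measured 48.2, 65.3 and 56.9 against 32.1, 41.3 and 29.7 (-0.73 ± 0.27). Rnf111, a ubiquitin ligase of the TGF-beta pathway, measured 81.4, 121 and 56.5 against 42.9, 54.4 and 49.1 (-0.82 ± 0.31). For Itgb1 and Rnf111 the highest value was in WT 2 and the narrowest gap was at WT 3, whose Acod1 was high. Wdr48, an activator of deubiquitinases, measured 40.8, 45.1 and 55.8 against 30.4, 26.8 and 19.3 (-0.88 ± 0.31). Vopp1, Zfp422 and Neurl4 completed the 10, at log2 differences of -1.06, -1.08 and -0.85. For Zfp422 a single library, WT 2 at 24.7 CPM against 6.26 to 10.2 in the others, made most of it, and the log2 difference was -0.46 without WT 2. Over these 10 genes, again chosen by direction, the log2 differences were -1.17 to -0.61 within pool 1 and -0.94 to -0.19 without the 4 libraries against their labels.

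**Figure D3:**
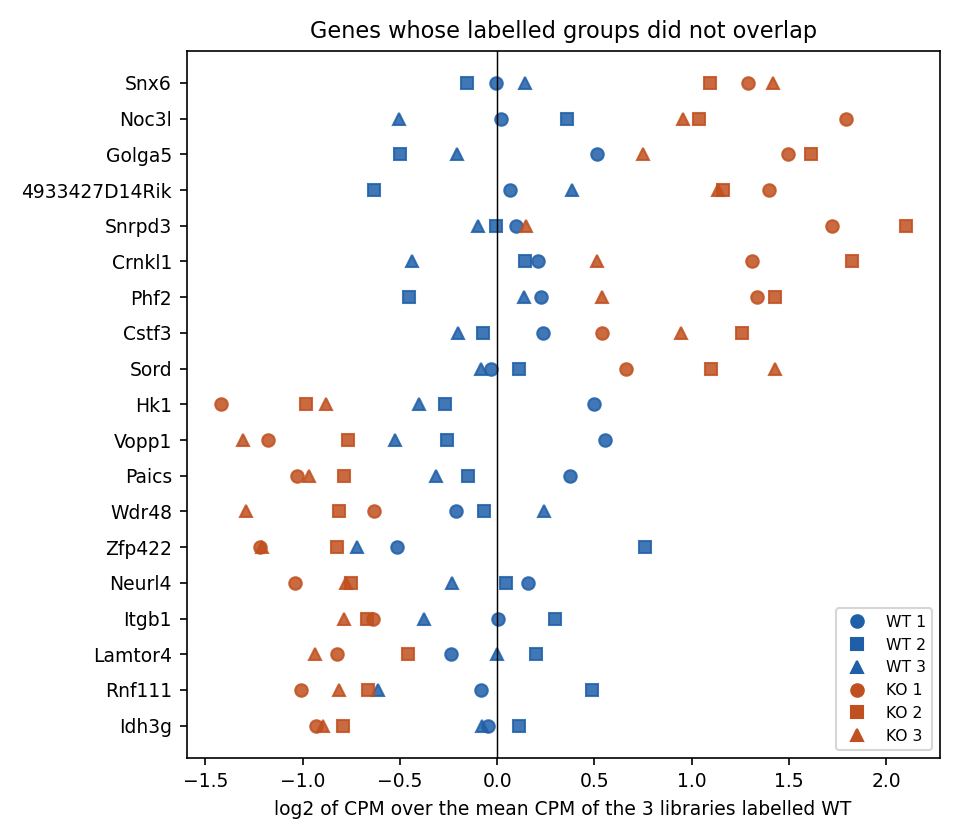
CPM of the genes with the smallest p among those whose labelled groups did not overlap, in each library as log2 of the ratio to the mean of the 3 libraries labelled WT, with symbols by replicate, WT in blue and KO in orange. For Snx6 and Idh3g the 2 labels form separate tight sets, whereas for Snrpd3 the KO 3 value of 40.1 CPM lies next to the WT value of 38.6, and for Zfp422 the WT 2 value of 24.7 CPM stands apart.

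Genes that supply or consume the substrate of Irg1 showed no called difference. Of 30 tested genes of the TCA cycle and of itaconate handling, 24 were lower in KO and 6 higher, with a median log2 difference of -0.13, beside 51.1% lower and -0.01 over all genes. The interval lay within 1 log2 unit of 0 for 17 of the 30. The subunits of succinate dehydrogenase, the enzyme that itaconate inhibits, overlapped between labels, with Sdha at 67.3, 77.2 and 95.3 CPM in WT and 63.9, 77.1 and 66.8 in KO (-0.21 ± 0.29) and Sdhb at -0.15 ± 0.34. Clybl, which breaks down the citramalyl-CoA formed from itaconate, measured 17.9, 36.7 and 13.5 against 23.2, 33.6 and 24.0 (0.24 ± 0.36). That value was -0.02 without WT 3, 0.78 without WT 2 and 1.09 without the 4 libraries against their labels. Only Idh3g and Cs, the citrate synthase that feeds the cycle, had groups that did not overlap (6.67%, beside 10.6% of all genes). Cs measured 41.3, 43.3 and 60.6 CPM against 32.6, 37.1 and 38.0 (-0.43 ± 0.28). Idh3a, the catalytic partner of Idh3g, went the other way at 0.76 ± 0.44, and that value was -0.03 without KO 2, where it measured 50.3 CPM.

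Inflammatory cytokines showed no called difference, and the labels overlapped for all but Tnfsf15. That was 1 of 15 tested (6.67%, beside 10.6% of all genes without overlap). Of 15 cytokine genes tested, 9 were lower and 6 higher (median log2 difference -0.15), and the interval lay within 1 log2 unit of 0 for 2 of them. Il1b, the interleukin-1 beta precursor, measured 341, 445 and 576 CPM in WT and 373, 335 and 309 in KO (-0.42 ± 0.28). Tnf measured 34.6, 25.8 and 55.5 against 15.1, 26.4 and 45.3 (-0.42 ± 0.39). For Tnf the highest library of each label was the one with high Acod1, while for Il1b that held for WT alone. Il6 was low at this time, at 0.72, 1.64 and 3.21 CPM against 3.23, 1.13 and 4.82 (0.72 ± 0.69), and Il12b, the p40 chain of interleukin-12 and interleukin-23, measured 8.88, 7.26 and 11.6 against 10.4, 8.09 and 21.7 (0.53 ± 0.40). Il1rn, the antagonist of the interleukin-1 receptor, measured 1008, 395 and 1054 against 426, 595 and 1140 (-0.18 ± 0.40). Il10 measured 3, 1.41 and 3.61 against 1.66, 3.18 and 1.48 CPM (-0.33 ± 0.60). Without the 4 libraries against their labels, Il6 and Il12b turned to -0.52 and -0.31, and Tnf was at -1.40. Of the fixed panel's effector enzymes, Nos2, the inducible nitric oxide synthase, measured 46.9, 41.5 and 105 against 112, 68.4 and 139 (0.73 ± 0.41, but -0.20 without the 4 libraries against their labels). Ptgs2, the inducible cyclooxygenase, measured 37.0, 67.5 and 89.2 against 25.6, 48.5 and 176 (0.36 ± 0.62, but -0.78 without KO 3 and -1.25 without the 4 libraries against their labels). WT 3 and KO 3 were the highest of their labels for Nos2 and Ptgs2. For Arg1, an arginine-consuming enzyme also in the panel, they were the lowest, at 2903 and 2478 CPM.

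Chemokines showed no called difference either, and the labels overlapped for all but Ccl24, which was low at 0.60 to 2.76 CPM. That was 1 of 19 tested (5.26%, beside 10.6% of all genes without overlap). Of 19 tested, 15 were lower and 4 higher, with a median log2 difference of -0.19, and the interval lay within 1 log2 unit of 0 for 3. Cxcl10, an interferon-induced ligand of CXCR3, measured 287, 39.8 and 316 CPM in WT and 43.7, 88.7 and 431 in KO. WT 2, KO 1 and KO 2 were low and WT 1, WT 3 and KO 3 high, so the labels overlapped fully and the log2 difference was -0.19 ± 0.71. Ccl2, which recruits monocytes, measured 272, 101 and 327 against 88.8, 171 and 570 (0.24 ± 0.55), and Cxcl2, which recruits neutrophils, measured 270, 241 and 674 against 212, 310 and 676 (0.01 ± 0.49). Ccl5 measured 7044, 5236 and 7616 against 3935, 5439 and 5408 (-0.43 ± 0.41). For Cxcl10, Ccl2 and Cxcl2 the highest library of each label was replicate 3. Cxcl9, another CXCR3 ligand, departed from that order at 203, 113 and 201 against 447, 292 and 181 CPM (0.83 ± 0.35), where KO 1 was highest and the log2 difference without it was 0.46.

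The 2 libraries with high Acod1, WT 3 and KO 3, were each the highest of their label for 11 of 19 chemokines (57.9%), 8 of 15 cytokines (53.3%) and 17 of 32 NRF2 targets (53.1%), beside 17.5% of all genes tested. The share was 47.6% for negative regulators of inflammation, 45% for lysosome genes, 40% for inflammatory effector enzymes and 36.4% for antigen presentation genes, so it was not limited to cytokines and chemokines. For type I interferon-stimulated genes it was 9 of 49 (18.4%), and for mitochondrially encoded genes 0 of 13. The high to low ratio among the 3 WT libraries exceeded 2 for 10 of 19 chemokines (52.6%) and 8 of 15 cytokines (53.3%), beside 18.8% of all genes. The labelled comparison of these groups accordingly moved with single libraries. Without KO 3, Cxcl10 was at -1.68, Ccl2 at -0.82 and Il12b at 0.03, and without WT 3, Tnf was at -0.06. Without the 4 libraries against their labels, Cxcl10 was at -2.2 and Ccl2 at -1.3. The chemokine median was -0.81 without KO 3, 0.11 without KO 1, and -1.24 without the 4 libraries against their labels. For cytokines it was -0.62 without those 4, and between -0.29 and 0.14 with 1 WT or KO library left out. KO 3 was also the only one of the 6 in pool 2, and the part of pool in these values was not tested.

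**Figure D4:**
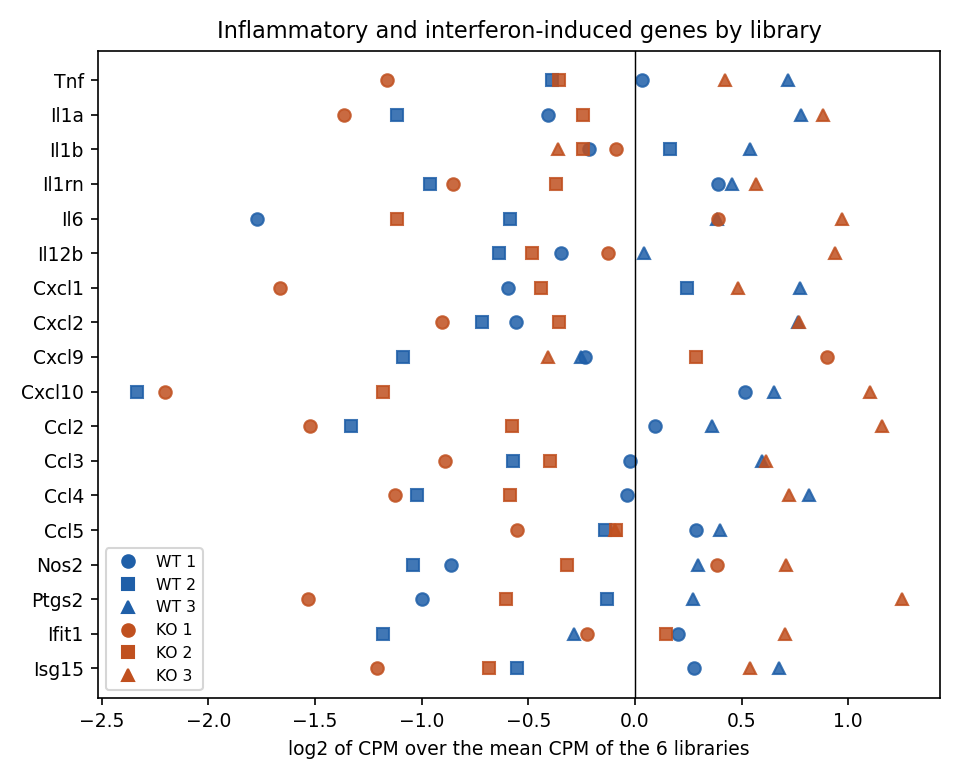
CPM of 18 inflammatory and interferon-induced genes in each library as log2 of the ratio to the mean of the 6 libraries, with symbols by replicate, WT in blue and KO in orange. Blue and orange points overlap in each row, and the triangles of WT 3 and KO 3 lie at the right for most chemokines, as for Cxcl2 at 674 and 676 CPM.

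Among 29 tested genes of LPS sensing and NF-kB signalling, 14 were higher and 15 lower (median -0.06). Chuk, which encodes the kinase IKK-alpha, measured 58.5, 46.1 and 51.8 CPM in WT and 94.5, 118 and 60.2 in KO (0.80 ± 0.29), and Irak3, an inhibitory kinase of Toll-like receptor signalling, measured 210, 254 and 232 against 812, 296 and 276 (0.99 ± 0.37). Both were wholly above WT, 2 of 29 (6.90%, beside 4.85% of all genes), but Irak3 rested on KO 1 and was 0.30 without it. Negative regulators of inflammation were balanced, with 10 of 21 higher and 11 lower. Nfkbie, an inhibitor of NF-kB, measured 28.8, 26.8 and 272 against 24.6, 30.3 and 29.6 CPM. The WT 3 library alone was high, and the log2 difference of -1.95 ± 0.93 was 0.02 without it. Nfkbiz, the atypical NF-kB regulator IkB-zeta, measured 183, 198 and 170 against 205, 206 and 249 (0.26 ± 0.27). Tnip3, an A20-binding inhibitor of NF-kB, was at 0.36 ± 0.28. Atf3, a stress factor that restrains inflammatory transcription, measured 509, 264 and 553 against 374, 483 and 469, and its log2 difference rounded to 0 with a standard error of 0.34. That difference was -0.35 without the 4 libraries against their labels.

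Interferon-stimulated genes showed no common direction. Of 49 type I interferon-stimulated genes tested, 20 were higher and 29 lower, with a median log2 difference of -0.10. The groups did not overlap for 1 higher and 4 lower (10.2%, beside 10.6% of all genes). Ifit1, which binds viral RNA, measured 1723, 661 and 1231 CPM in WT and 1282, 1661 and 2445 in KO (0.58 ± 0.37). Isg15, a ubiquitin-like modifier, measured 117, 65.9 and 155 against 41.8, 60.3 and 141 (-0.48 ± 0.42). Without the 4 libraries against their labels, Ifit1 was at 0.28 and Isg15 at -1.58. Irf7, a factor that amplifies the response, overlapped between labels (-0.44 ± 0.31). Ifitm3, a membrane protein that restricts viral entry, lay wholly below WT at 1305, 1236 and 1733 against 1051, 1174 and 983 (-0.41 ± 0.39).

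Xaf1, a pro-apoptotic gene induced by interferon, measured 193, 165 and 143 against 153, 450 and 488 CPM (1.12 ± 0.38), where KO 2 and KO 3 were high and KO 1 was among the WT values. Sp100, a nuclear body protein, measured 269, 148 and 176 against 444, 239 and 366 (0.82 ± 0.34). Interferon-induced GTPases, which attack vacuoles of intracellular microbes, were higher for 10 of 14 (median 0.19). That median was -0.07 without WT 2 and 0.53 without WT 1, so its sign rested on single libraries. Gbp9 measured 19.4, 17.4 and 20.5 against 65.5, 29.2 and 30.5 (1.13 ± 0.49, 0.64 without KO 1), and Igtp 80.5, 35.6 and 83.8 against 28.1, 47.9 and 55.4 (-0.61 ± 0.38). Reads that aligned to several places were tallied apart from the genes. Near-identical family members such as the Gbp and Ifit genes may have lost reads, so these values are uncertain.

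The transcript of NRF2 was higher in the KO libraries while those of most NRF2 targets were not, and none passed the test. NRF2 protein was not measured. Nfe2l2, which encodes NRF2, measured 203, 170 and 162 CPM in WT and 364, 248 and 405 in KO. The groups did not overlap, with a log2 difference of 0.93 ± 0.30 (interval 0.29 to 1.56, unadjusted p 0.00726, edgeR adjusted p 0.995), between 0.80 and 1.11 with 1 WT or KO library left out. Of 32 genes of the list, which holds Nfe2l2, 9 were higher and 23 lower with a median of -0.23. That median was 0.07 without WT 3 and -0.65 without the 4 libraries against their labels. Groups did not overlap for 6 (18.8%, beside 10.6% of all genes), 3 in each direction.

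The NRF2 targets wholly above WT were Txnrd1, the cytosolic thioredoxin reductase, at 153, 160 and 151 against 453, 214 and 227 CPM (0.94 ± 0.36), and the small Maf partner Mafg at 412, 278 and 396 against 470, 496 and 552 (0.48 ± 0.30). KO 1 dominated Txnrd1, which was 0.51 without it. Those wholly below were Nqo1, a quinone reductase, at 3.72, 5.15 and 3.08 against 2.49, 2.87 and 2.36 (-0.63 ± 0.47), Osgin1 (-0.54 ± 0.42) and Fth1, the ferritin heavy chain and one of the most abundant transcripts here, at 54707, 55665 and 54099 against 44930, 50121 and 42275 CPM (-0.26 ± 0.24). Hmox1, which degrades haem, measured 191, 261 and 379 against 166, 239 and 318 (-0.20 ± 0.31). Gclm, of glutathione synthesis, measured 760, 625 and 927 against 559, 721 and 876 (-0.10 ± 0.28). Slc7a11, the cystine importer, measured 79.6, 54.0 and 148 against 62.0, 65.5 and 135 (-0.10 ± 0.43). In each of these 3 genes WT 3 and KO 3 were the highest library of their label, and the labels overlapped.

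In the integrated stress response, which ATF4 drives when translation is restrained, 11 of 29 tested genes were higher and 18 lower (median -0.14). Atf4 measured 319, 259 and 380 CPM against 380, 1227 and 467 (1.11 ± 0.38). KO 2 alone was high, and the log2 difference was 0.41 without it. Cebpg, a partner of ATF4, measured 85.6, 58.6 and 65.7 against 101, 109 and 167, wholly above WT (0.85 ± 0.37). The ATF4 targets Asns, the asparagine synthetase (-0.56 ± 0.51), and Ddit3, the pro-apoptotic CHOP (0.01 ± 0.29), overlapped between labels, and Ddit3 turned to -0.05 with upper-quartile scaling. Of 28 chaperone genes, 14 were higher and 14 lower, and Pdia3, a disulfide isomerase of the endoplasmic reticulum, measured 123, 94.6 and 136 against 439, 190 and 169 (1.17 ± 0.52, 0.61 without KO 1).

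Genes of glycolysis and of the respiratory chain leaned to lower values in KO by small amounts. Of 27 glycolysis and HIF-1 target genes, 22 were lower, with a median log2 difference of -0.15. Besides Hk1, only Aldoa, the aldolase, did not overlap between labels (7.41% of the list, beside 10.6% of all genes). Aldoa measured 666, 573 and 596 CPM against 343, 465 and 495 (-0.49 ± 0.38). Egln3, a HIF prolyl hydroxylase, was at -0.69 ± 0.37. Of 72 nuclear genes of the respiratory chain, 59 were lower (81.9%, beside 51.1% of all genes) with a median of -0.24. That median was between -0.30 and -0.13 with 1 WT or KO library left out and -0.35 without the 4 against their labels. Groups did not overlap for 14 lower genes and 1 higher (20.8%, beside 10.6% of all genes, 5.76% lower and 4.85% higher). Ndufv1, of the complex I core, measured 37.8, 32.1 and 47.1 CPM against 15.8, 26.8 and 24.6 (-0.80 ± 0.36), and Atp5b, the catalytic beta subunit of ATP synthase, measured 603, 562 and 611 against 355, 464 and 469 (-0.46 ± 0.33). Ndufc2 opposed them at 135, 127 and 155 against 571, 116 and 485 (1.49 ± 0.67), high in KO 1 and KO 3 and below the WT values in KO 2.

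The 13 mitochondrially encoded genes, 10 of them lower, had a median log2 difference of -0.36, and 2 did not overlap (15.4%, beside 10.6% of all genes). mt-Co2, a core subunit of cytochrome oxidase, measured 2495, 3323 and 2883 CPM in WT and 2034, 2405 and 2051 in KO (-0.42 ± 0.36). mt-Co3, another core subunit, measured 1840, 2294 and 2482 against 1700, 1799 and 1556 (-0.39 ± 0.33). mt-Nd2, of complex I, was the reverse at 344, 506 and 333 against 886, 445 and 521 (0.65 ± 0.32, 0.29 without KO 1). These genes took 2.08% to 2.57% of gene reads in WT and 1.72% to 2.21% in KO, and the part of RNA quality in these values was not tested. mt-Nd6 (-1.06 ± 0.58) rested on WT 2 and was -0.07 without it.

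Macrophage identity genes leaned to lower values in KO, as most lists did. In bulk RNA fewer cells of a type cannot be told apart from less RNA per cell. Of 32 tested, 23 were lower with a median of -0.22, and 5 lay wholly below WT and none wholly above (15.6%, beside 10.6% of all genes and 5.76% wholly below). These were Cd68, Marco, Tyrobp, C1qb and C1qc. Cd68, an endosomal glycoprotein, measured 369, 328 and 410 CPM in WT and 231, 325 and 253 in KO (-0.45 ± 0.36). C1qb, a chain of complement C1q, measured 588, 663 and 677 against 445, 514 and 474 (-0.43 ± 0.32). Csf1r, the receptor for the macrophage growth factor, measured 357, 493 and 489 against 281, 400 and 285 (-0.47 ± 0.34), overlapping only through KO 2. Its ligand Csf1 was at -0.59 ± 0.35. Mrc1, the mannose receptor of alternatively activated macrophages, measured 42.6, 53.6 and 16.6 against 87.9, 54.5 and 34.7 (0.65 ± 0.42, 0.25 without KO 1 and 2.12 without the 4 libraries against their labels), and Arg1, which consumes arginine, measured 3709, 3162 and 2903 against 3268, 3051 and 2478 (-0.15 ± 0.28). Pf4, a chemokine of platelets that macrophages also make, measured 423, 386 and 701 against 214, 257 and 326 (-0.92 ± 0.43), without overlap.

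Antigen presentation genes were lower for 15 of 22 (median -0.13). H2-Ab1, a class II chain, measured 27.4, 38.7 and 32.2 CPM against 22.8, 28.4 and 20.2 (-0.46 ± 0.32), and Cd274, the checkpoint ligand PD-L1, measured 306, 210 and 223 against 713, 248 and 463 (0.95 ± 0.36, 0.53 without KO 1). H2-T23, a non-classical class I gene whose reads may also align to relatives, measured 9.60, 88.7 and 5.62 against 8.99, 5.44 and 2.76. WT 2 alone was high, and its log2 difference of -2.58 ± 0.81 was -0.40 without that library. Lysosome genes were lower for 29 of 40 (median -0.15), with Atp6ap1, of the proton pump, at 96.7, 95.9 and 115 against 68.0, 86.3 and 85.6 (-0.36 ± 0.26). Proteasome genes had the interval within 1 log2 unit of 0 for 30 of 38, and Psmd4 was at -0.36 ± 0.26.

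Of 32 cholesterol and lipid genes, 13 were higher and 19 lower. Nr1h2, the sterol receptor LXR-beta, measured 43.1, 31.6 and 36.3 CPM against 21.6, 27.9 and 24.1 (-0.59 ± 0.30), wholly below WT. Cell cycle genes split 14 to 17. Rrm1, of deoxynucleotide synthesis, was at 0.90 ± 0.34 and Mcm4, of the replicative helicase, at -0.73 ± 0.34, so members of that group did not share a direction. Of 19 iron and zinc genes, 14 were lower (median -0.20). Mt1, a metallothionein, measured 243, 72.2 and 162 against 39.1, 56.2 and 126 (-1.11 ± 0.53, -0.67 without WT 1), and Slc39a14, a zinc and iron importer, measured 13.1, 24.2 and 19.4 against 69.7, 19.9 and 21.5 (0.97 ± 0.46, 0.13 without KO 1).

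**Figure D5:**
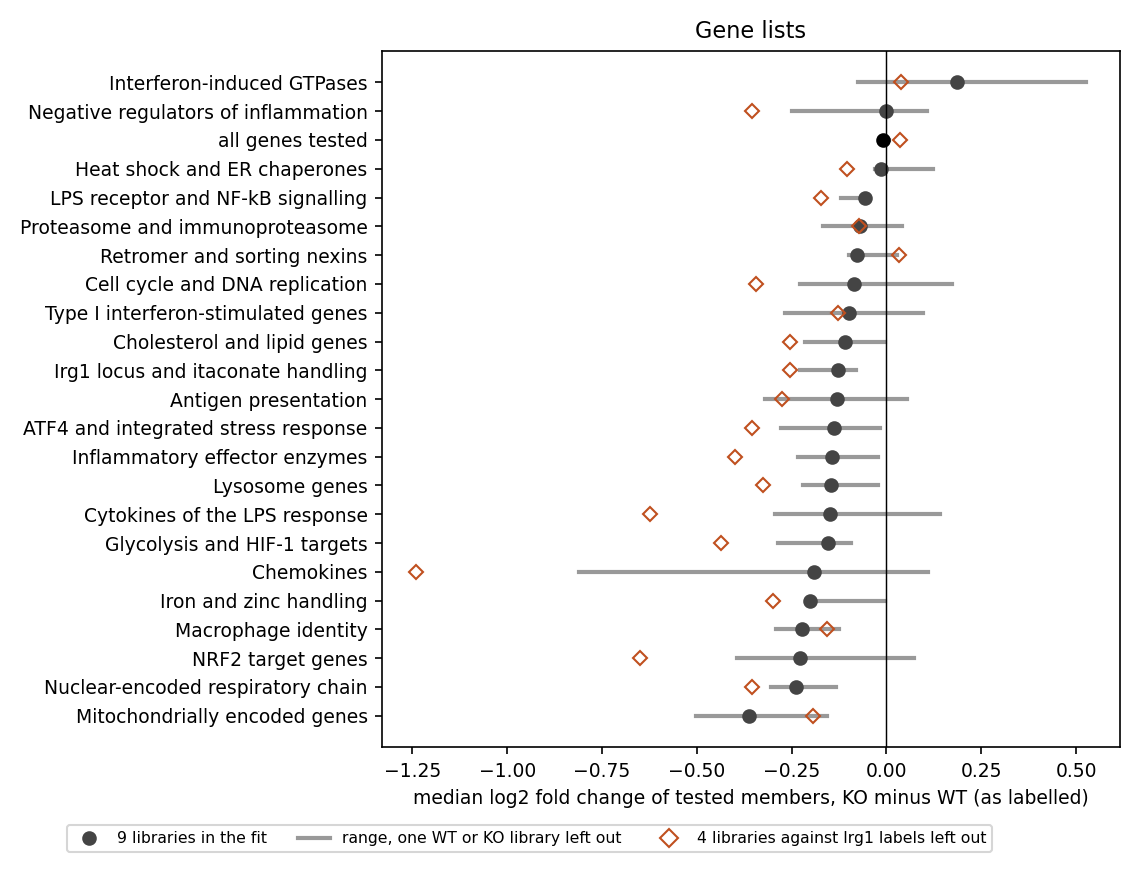
Median log2 difference KO minus WT over the tested members of the gene lists shown (filled circles; lists of other cell types, sex and strain are not drawn), its range with 1 WT or KO library left out (grey lines), and its value without the 4 libraries whose Acod1 reads oppose their labels (open diamonds). All genes tested sit at -0.01, the lists drawn lie between -0.36 for mitochondrially encoded genes and 0.19 for interferon-induced GTPases, and the chemokine line reaches from -0.81 to 0.11.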

How the data were processed

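Per the labels' protocols, poly(A) RNA bound to oligo-dT beads was reverse transcribed with barcoded primers, and the pooled samples became strand-specific libraries. The authors deposited raw read counts per gene. The submitters' processing notes name STAR, HTSeq and mm10, and versions and annotation release are not given in the sources used here. No molecular identifier is described, so PCR copies count separately, and limits given as 3 reads cover counting error only. The 5 summary lines were left out. Symbols and GRCm38 positions were matched for 21745 of 22165 gene rows.

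All 9 libraries entered 1 edgeR 4.0.16 fit (quasi-likelihood F test, two-sided, R 4.3.3) with the 3 groups as the only term. Scaling was by TMM (trimmed mean of M-values), and filterByExpr with a minimum count of 10 kept 10781 genes. P-values were Benjamini-Hochberg adjusted over those genes, with a threshold of 0.05. The fit was also run on simulated counts. These held no outlying library, pool difference or library against its label, so they cannot speak to those features of the data. CPM in the text are TMM scaled, except marker sums. Standard errors come from the F statistic, and intervals are at 95%. Principal components and correlations used log2 CPM.

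Named genes were Acod1, called genes, 10 per direction with the smallest p among those with a mean of at least 10 CPM and groups that did not overlap, 2 per list, and a panel of 35. Members named otherwise were chosen from their list after their values were seen. The members and the 31 gene lists were chosen with earlier results of these data known. The alternatives changed scaling, filter, tool (limma 3.58.1, DESeq2 1.42.0), libraries, pool or replicate block. Itaconate-labelled libraries were not compared. Promoter letters come from RefSeq. A few genes that the rule names are not reported here.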

Additional observations from a re-analysis of the deposited data

How the results depend on the processing

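The count of called genes stayed at 0 in the 21 alternative fits, except for 1 gene (Snx6) with DESeq2 and 2 genes without the 4 libraries against their labels. Those 2 were Acod1, lower in KO with a log2 difference of -8.66 (edgeR adjusted p 1.81e-07), the opposite sign to 0.08 as labelled, and Cfb, complement factor B, higher with an adjusted p of 0.0348. That fit has 1 WT library, Acod1 itself chose the libraries, and Cfb had 106, 4 and 1 reads in WT and 725, 75 and 26 in KO. Within pool 1, Acod1 was at -7.07. Genes whose groups did not overlap numbered 1144, between 1841 and 2790 with 1 library left out, 2764 in pool 1 and 8716 without the 4, since fewer libraries overlap less often. At an unadjusted p under 0.05, 596 genes passed with the 6 libraries alone, 998 in pool 1, 977 with pool as a term, 562 without a filter and 1185 without the 4. The cause was not tested. Of 91 named genes, 71 kept their sign in all alternatives (20 of them chosen by non-overlap, which fixes the sign in part), as did 13 of 27 list medians. Replicate numbers paired the samples only in part, with correlations of deviations of 0.128, 0.0395 and 0.308 between same-numbered libraries. KO 3 correlated best with WT 3, and KO 2 with WT 2, though narrowly (0.0272 with WT 3). KO 1 correlated best with WT 2 (0.241). With a replicate block, 0 genes were called and 272 had an unadjusted p under 0.05. Having 3 libraries per label limits the precision, and every pair of libraries differed by far more than counting noise (chi-square per degree of freedom of at least 33.4).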

Other observations

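The libraries labelled knockout with itaconate lie outside the comparison of WT and KO, although they share its gene filter, scaling and estimate of spread. Their values for some genes named above are given here without a test. Snx6 measured 115, 173 and 168 CPM in itaconate replicates 1, 2 and 3, beside 134 to 164 in WT and 317 to 397 in KO. Nfe2l2 measured 153, 141 and 240 there, beside 162 to 203 in WT and 248 to 405 in KO. Hk1 measured 38.7, 66.5 and 58.4, beside 75.7 to 142 in WT and 37.4 to 54.5 in KO. Idh3g was at 19.2, 16.1 and 7.61, beside 21.1 to 24.1 and 11.7 to 12.9. Cxcl10 was at 304, 229 and 231 in these libraries, whose Acod1 was at 8.68, 0.877 and 6421 CPM. These libraries carry the pool numbers 2, 3 and 4, whereas 5 of the 6 others carry 1.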
